A study of Homo sapiens with 16 samples.

Results

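A set of 55 genes that act at the end of G2 and in mitosis was followed among 56865 genes with summed reads in an RNA-seq series. They were listed by name and role, not by a measured value, though earlier results of these data were known when the list was made. All 55 passed the low-count filter with 15687 genes in total. The samples are NCI-H1299, a lung carcinoma cell line of human origin and of the non-small cell type that lacks p53, and a stable NCI-H1299 (p53Y220C) line that carries the cancer mutant p53 Y220C. Each line was treated for 24 h with DMSO, the vehicle, or with 10 µM MS78, which gives the 4 groups p53-null DMSO, Y220C DMSO, p53-null MS78 and Y220C MS78 of 4 libraries each. MS78 was designed to recruit 2 acetyltransferases, p300 and CBP, to the mutant protein. The Y220C line was kept in 500 µg/mL G418 and the parental line was not, so the line, its transgene and the drug that selects it cannot be told apart. Whether the Y220C line is 1 clone, what promoter drives its transgene and whether replicates were separate cultures is not known from the labels. Every p-value therefore refers to the spread among these libraries, which may be technical.

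Passage into mitosis is set by cyclin-dependent kinase 1 bound to cyclin A or B, which phosphatases of the CDC25 family switch on. The PLK1 and Aurora kinases, condensins, mitotic kinesins, kinetochore proteins and the spindle checkpoint then build the spindle and hold the chromosomes until the anaphase-promoting complex with CDC20 destroys securin and cyclin B, and cytokinesis follows. Most of these genes are transcribed in late S phase, G2 and mitosis, through FOXM1, B-MYB and the MuvB complex at cell cycle genes homology regions (CHR elements) and through NF-Y at CCAAT boxes. In quiescent or arrested cells the DREAM complex sits on the same promoters and holds them down, and induction of p21 (CDKN1A) by p53 is a known route to that state.

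Values are CPM (reads of a gene per 1e6 reads of the library) scaled by library size factors, and changes are log2 fold changes from edgeR's quasi-likelihood F-test with Benjamini-Hochberg adjustment over all 15687 genes, where an adjusted p under 0.05 is a call. Library totals ran from 20259977 to 27656528 reads assigned to genes, and no gene of the set had fewer than 140 reads in a library. CDKN1A averaged 50.5 CPM in p53-null DMSO and 83.6 CPM in p53-null MS78 libraries, and 37.4 CPM in Y220C DMSO and 125 CPM in Y220C MS78 libraries. The carcinoma line's VIM, KRT8 and KRT18 were present, while the epithelial genes EPCAM and CDH1 averaged at most 1.07 and 1.19 CPM in any group and the lung genes NKX2-1 and SFTPB were near 0. Of the 16 libraries, 8 held at least 10 reads of the leukocyte gene PTPRC: replicate 1 of each DMSO group and replicates 2 to 4 of each MS78 group. The 19 leukocyte markers summed to 70.9 to 162 TPM (CPM-like levels that also allow for transcript length) in p53-null DMSO and 79.8 to 284 in p53-null MS78 libraries. The sums were 49.0 to 144 in Y220C DMSO and 54.7 to 277 in Y220C MS78 libraries. Libraries with 0 or 1 PTPRC read still summed to 49.0 to 79.8 TPM, so the sum does not follow PTPRC alone. Below, libraries with and without leukocyte reads are those with and without 10 reads of PTPRC. Because the set with such reads overlaps with the treatment, results are given below also within these 8 libraries and within the 8 without.

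RefSeq promoter sequences (GRCh38.p14) were found for 48 of the 55 genes, and 8 stretches are printed because they show the elements that the genes share and those at either end of the response. CHR elements were searched as TTTGAA or TTCGAA and CCAAT boxes as CCAAT, both on both strands, and these letters, with their reverse-strand forms TTCAAA and ATTGG, are in capitals. Each stretch is 120 bases long, reads 5′ to 3′ on the gene's strand and lies before the RefSeq start.
CDK1 (chr10:60778151-60778270, plus strand, ending 60 bases before the start): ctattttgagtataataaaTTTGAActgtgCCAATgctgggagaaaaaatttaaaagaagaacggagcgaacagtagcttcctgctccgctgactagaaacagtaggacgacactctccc
CDC20 (chr1:43358831-43358950, plus strand, ending 30 bases before the start): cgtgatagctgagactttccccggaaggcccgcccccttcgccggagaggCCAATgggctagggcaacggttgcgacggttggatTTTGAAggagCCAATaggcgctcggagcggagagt
ESPL1 (chr12:53268179-53268298, plus strand): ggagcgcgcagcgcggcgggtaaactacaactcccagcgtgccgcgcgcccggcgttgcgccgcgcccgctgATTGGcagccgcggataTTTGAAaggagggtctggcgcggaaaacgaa
KIF11 (chr10:92593010-92593129, plus strand): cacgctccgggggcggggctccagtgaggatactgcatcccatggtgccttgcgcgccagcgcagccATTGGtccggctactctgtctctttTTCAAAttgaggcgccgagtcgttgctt
MKI67 (chr10:128126424-128126543, minus strand): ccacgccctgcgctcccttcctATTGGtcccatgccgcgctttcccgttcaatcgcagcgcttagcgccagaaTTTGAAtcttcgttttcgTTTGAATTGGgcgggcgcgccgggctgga
CKS2 (chr9:89311075-89311194, plus strand): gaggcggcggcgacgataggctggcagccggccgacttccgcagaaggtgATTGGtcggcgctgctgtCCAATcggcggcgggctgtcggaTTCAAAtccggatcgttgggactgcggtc
CENPF (chr1:214603075-214603194, plus strand): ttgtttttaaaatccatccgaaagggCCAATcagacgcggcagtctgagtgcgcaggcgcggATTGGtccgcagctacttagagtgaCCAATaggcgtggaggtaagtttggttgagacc
SPC24 (chr19:11155813-11155932, minus strand, ending 30 bases before the start): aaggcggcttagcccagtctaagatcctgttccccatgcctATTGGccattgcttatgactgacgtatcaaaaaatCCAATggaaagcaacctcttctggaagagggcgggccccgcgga

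In the 250 bases before the start, 28 of 48 promoters (58.3%) held a CHR element, against 14.6% of 27305 RefSeq promoters. A CCAAT box was present in 35 of 48 (72.9%) against 33% of all promoters, and both elements in 23 of 48 (47.9%) against 5.24%. In ESPL1, KIF11, MKI67 and CKS2 the CHR element began 31, 28, 29 and 29 bases before the start. Of the 48 promoters, 15 had it 20 to 40 bases before the start. The share of all promoters with it there was not computed, so whether 15 is many cannot be told. A second CHR element of MKI67 lay 47 bases before the start, and the nearer one overlapped a CCAAT box. CENPF and SPC24, whose messages fell steeply in Y220C cells, had 3 and 2 CCAAT boxes in the stretches shown and no CHR element in the 250 bases, while CKS2, the gene that rose, had both. SPC25, MKI67 and TOP2A, which also fell steeply there, held 1, 2 and 2 CHR elements in the 250 bases. That of SPC25 began 247 bases and those of TOP2A 194 and 151 bases before the start. Of the other genes at least halved there, CDK1 held 1, 161 bases before the start. AURKB, CENPE, CDCA3, NUF2 and NDC80 held none, and no promoter was found for UBE2C. The median log2 fold change of the 28 genes with a CHR element and the 20 without was -0.61 and -0.62 in p53-null cells and -0.83 and -0.95 in Y220C cells. A match of letters describes the sequence only.

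The mitotic genes fell in both lines. In p53-null cells MS78 lowered 54 of the 55 genes and raised none, where 13.3% of all genes tested were called lower, and the median change was -0.62 against 0.01 over all genes. The remaining gene, the kinetochore gene CENPI, had a log2 fold change of -0.20 (adjusted p = 0.0509). In Y220C cells 54 genes fell and 1, CKS2, rose, where 23.6% of all genes were called lower and 24.9% higher, and the median change was -0.86 against -0.01. Falls of at least 2-fold were seen for 1 gene in p53-null cells (CDK1), where 0.325% of all genes fell so far, and for 12 genes in Y220C cells, where 2.07% did. The 12 were SPC24, SPC25, MKI67, AURKB, TOP2A, CENPF, UBE2C, CENPE, CDCA3, CDK1, NUF2 and NDC80. Every MS78 library lay below every DMSO library for all 55 genes in p53-null cells (13.8% of all genes did so) and for 54 in Y220C cells (19.8%), and CKS2 was above in every Y220C library (21.5% of all genes were). In bulk RNA a smaller share of cells in G2 and mitosis and less RNA in each such cell cannot be told apart.

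**Figure D1:**
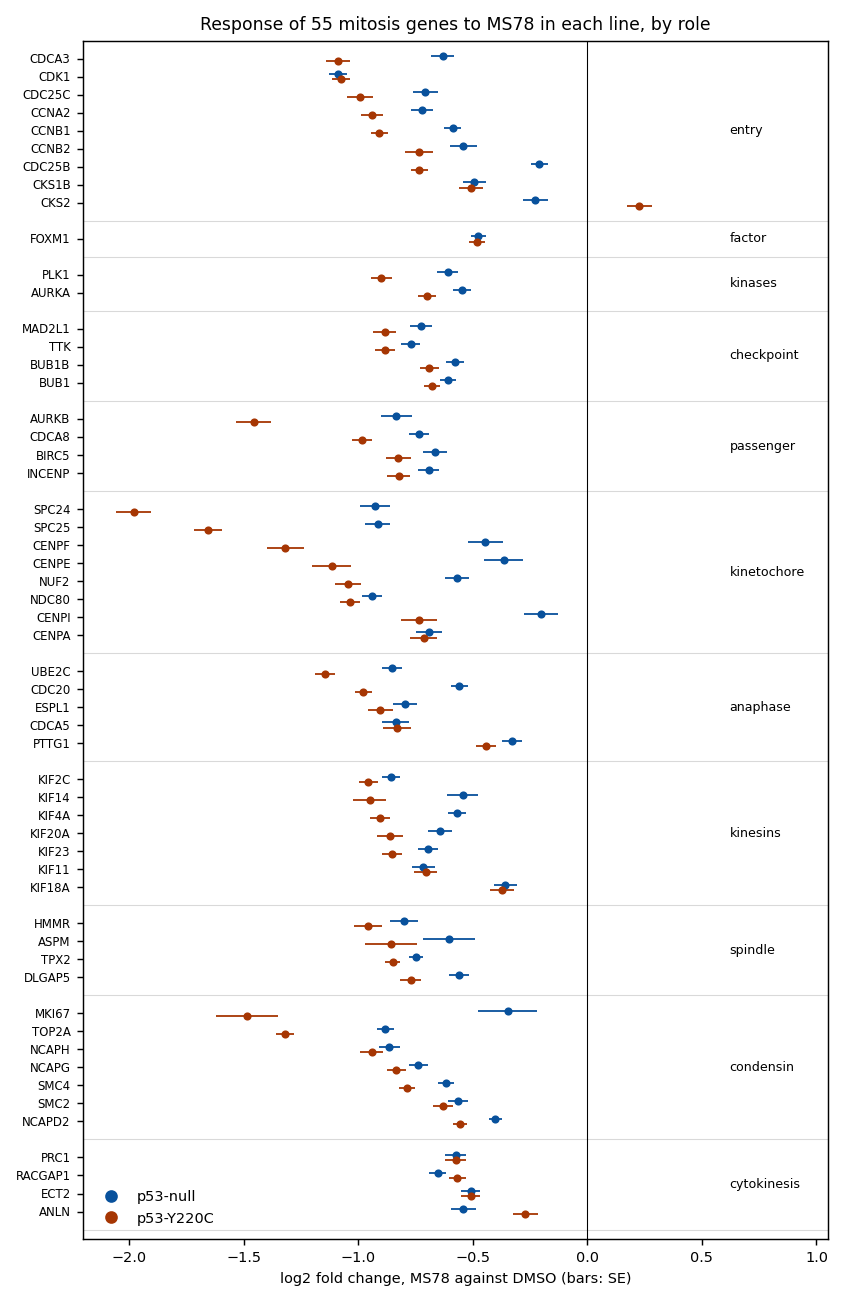
Log2 fold change after MS78 (x axis) for each of the 55 genes (rows, grouped by role) in p53-null cells (blue) and Y220C cells (brown), with bars for the standard error. All blue points lie left of 0, from -1.09 to -0.20, and all brown points but CKS2 do, down to -1.98 for SPC24.

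Within the libraries with leukocyte reads 52 of the 55 genes fell in p53-null cells (7.32% of all genes) and in Y220C cells 54 fell (14.1%) and CKS2 rose. Within the libraries without them the fall was called for 46 in p53-null cells (3.09% of all genes) and 54 in Y220C cells (9.28%), where the rise of CKS2 missed the threshold (log2 fold change 0.29, adjusted p = 0.0753). The 8 genes that lost their p53-null call there were CDC25B, CKS2, CENPE, CENPF, KIF14, KIF18A, ASPM and MKI67 (log2 fold changes -0.21 to -0.55, adjusted p = 0.0593 to 0.278). In each set MS78 is compared with DMSO in a line with 1 library in 1 arm, DMSO in the first set and MS78 in the second, and that library is assumed to vary like the others. With all 16 libraries and a term for leukocyte reads 54 genes were called in p53-null and 55 in Y220C cells. The part of leukocyte RNA in the changes was not tested beyond this.

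Expressed per length, the 55 genes together made up 5641 TPM ± 133 (SD, n = 4) in p53-null DMSO and 3721 ± 38.1 in p53-null MS78 libraries, and 5314 ± 85.9 in Y220C DMSO and 3378 ± 95.9 in Y220C MS78 libraries. CKS2 had the highest mean level, followed by CKS1B, PTTG1, CCNB1 and UBE2C. KIF14 had the lowest mean level over all libraries. In p53-null DMSO libraries CKS2 averaged 501 TPM and KIF14 7.79 TPM. The other genes at the low end were CENPE, CENPI, ASPM and MKI67.

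The 9 genes of mitotic entry all fell in p53-null cells, with a median change of -0.59, and 8 of them fell in Y220C cells, with a median of -0.91. CDK1 (ENSG00000170312, chr10:60778331-60794852), the kinase that drives entry, read 106, 109, 107 and 112 CPM in p53-null DMSO and 52.1, 49.1, 52.0 and 50.9 CPM in p53-null MS78 libraries. In Y220C cells the values were 109.7, 109, 103 and 106 CPM under DMSO and 52.5, 48.0, 51.9 and 50.6 CPM under MS78. Treated and DMSO libraries did not overlap in either line, the treated libraries of the 2 lines overlapped with each other, and the log2 fold changes were -1.09 (SE 0.04, adjusted p = 9.78e-15) and -1.08 (SE 0.04, adjusted p = 5.72e-15). The 2 changes differed by 0.01 (SE 0.05, adjusted p = 0.899).

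CCNB1 (chr5:69167010-69178245), cyclin B1, read 349.7, 364, 355 and 339 CPM in p53-null DMSO and 239, 231, 226 and 241 CPM in p53-null MS78 libraries. The Y220C line gave 336, 319, 317 and 308 CPM and then 177, 167, 173 and 165 CPM after MS78. Here all treated Y220C libraries lay below all treated p53-null libraries, and the changes were -0.59 (SE 0.04, adjusted p = 8.78e-11) in p53-null cells and -0.91 (SE 0.04, adjusted p = 3.81e-14) in Y220C cells. CDCA3 (chr12:6844793-6852066), which helps to trigger degradation of the entry inhibitor WEE1, went from 69.5, 70.3, 66.8 and 67.2 CPM to 46.0, 41.9, 42.1 and 46.8 CPM in p53-null cells. The Y220C libraries went from 61.5, 64.9, 60.3 and 63.8 CPM to 31.4, 29.2, 30.8 and 26.4 CPM. That is a change of -0.63 against -1.09 (SE 0.05, adjusted p = 6.61e-13), the largest fall of this role in Y220C cells. The phosphatase gene CDC25B changed by -0.21 (SE 0.04, adjusted p = 1.50e-04) in p53-null cells and by -0.73 (SE 0.04, adjusted p = 1.43e-12) in Y220C cells.

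CKS2 (chr9:89311198-89316703), a small protein that binds CDK1, went in opposite directions in the 2 lines. It read 123, 129.6, 117 and 109 CPM in p53-null DMSO and 101, 96.6, 105 and 107 CPM in p53-null MS78 libraries, a change of -0.23 (SE 0.05, adjusted p = 0.00335). Within the libraries without leukocyte reads this change was as large, -0.23, but was not called (adjusted p = 0.278), nor was the difference between the lines (0.52, adjusted p = 0.106). In Y220C cells it read 154, 167, 149 and 143 CPM under DMSO and 187, 167, 181 and 182 CPM under MS78. Every treated Y220C library lay above every DMSO library, though the nearest pair read 167.4 and 167.0 CPM, and the change was 0.23 (SE 0.05, adjusted p = 0.00144). Its paralogue CKS1B fell in both lines, with changes of -0.49 and -0.51.

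FOXM1 (chr12:2857681-2877155), the forkhead factor of the programme, read 234, 249.8, 238 and 244 CPM in p53-null DMSO and 176, 178, 171 and 169 CPM in p53-null MS78 libraries. The Y220C libraries read 184, 182, 186 and 189.5 CPM and 132, 136, 127 and 136 CPM. Under DMSO it was already lower in the Y220C line, with a difference of -0.38 (SE 0.03, adjusted p = 8.80e-09). MS78 changed it by -0.48 (SE 0.03, adjusted p = 5.59e-10) in p53-null cells and by -0.48 (SE 0.03, adjusted p = 3.02e-10) in Y220C cells, and these differed by -0.0043 (SE 0.05, adjusted p = 0.961).

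Of the mitotic kinases, PLK1 (chr16:23677656-23690367), which acts on centrosomes, kinetochores and the midzone, read 192, 197, 176 and 176 CPM in p53-null DMSO and 116, 124, 121 and 126 CPM in p53-null MS78 libraries. In Y220C cells the readings were 188, 192, 178 and 174 CPM and 95.0, 96.4, 103 and 98.3 CPM. The DMSO ranges of the lines overlapped and the MS78 ranges did not, with changes of -0.61 (SE 0.04, adjusted p = 1.10e-09) and -0.90 (SE 0.05, adjusted p = 1.43e-12). AURKA (chr20:56369389-56392337), the Aurora kinase of the spindle poles, went from 196, 205, 191 and 189 CPM to 133, 134, 134 and 134 CPM in p53-null cells and from 188, 187, 186 and 171 CPM to 112, 107, 119 and 113 CPM in Y220C cells. Its changes were -0.55 (SE 0.04, adjusted p = 8.09e-10) and -0.70 (SE 0.04, adjusted p = 9.33e-12).

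All 4 genes of the spindle assembly checkpoint, which delays anaphase until chromosomes are attached, fell in both lines, with medians of -0.67 and -0.79. MAD2L1 (chr4:120055608-120067074), the checkpoint protein that holds CDC20, read 59.3, 60.3, 58.0 and 59.1 CPM in p53-null DMSO and 37.5, 34.5, 33.7 and 37.3 CPM in p53-null MS78 libraries. The Y220C libraries read 49.5, 49.8, 48.7 and 44.8 CPM and 24.4, 26.0, 26.6 and 27.4 CPM, and the changes were -0.73 (SE 0.05, adjusted p = 1.48e-10) and -0.89 (SE 0.05, adjusted p = 7.59e-12). BUB1 (chr2:110637698-110678114), a checkpoint kinase, was higher in Y220C than in p53-null cells under DMSO, with 195, 187, 203 and 199 CPM against 158, 156, 157 and 165 CPM. After MS78 it read 122, 125, 126 and 118 CPM in Y220C and 105, 103, 104 and 105 CPM in p53-null cells, so its treated Y220C libraries stayed above all treated p53-null libraries. Its changes were -0.68 (SE 0.03, adjusted p = 1.51e-12) in Y220C and -0.61 (SE 0.03, adjusted p = 2.49e-11) in p53-null cells. None of the 4 genes passed the test for a difference between the lines' responses.

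The chromosomal passenger complex, which corrects wrong attachments and later guides cytokinesis, lost message of all 4 subunits in both lines, with medians of -0.71 and -0.90. AURKB (chr17:8204733-8210600), its kinase, read 104, 113, 93.5 and 92.3 CPM in p53-null DMSO and 52.9, 55.5, 56.6 and 61.1 CPM in p53-null MS78 libraries. Y220C cells gave 73.5, 75.9, 64.4 and 65.0 CPM under DMSO and 23.0, 26.2, 25.1 and 27.3 CPM under MS78. The 4 groups did not overlap: the Y220C DMSO libraries lay below the p53-null DMSO libraries, and the Y220C MS78 libraries were lowest. The changes were -0.83 (SE 0.07, adjusted p = 5.38e-09) and -1.46 (SE 0.08, adjusted p = 2.17e-12). INCENP (chr11:62123973-62153163), the scaffold, went from 75.1, 74.7, 67.3 and 73.5 CPM to 41.8, 45.0, 48.4 and 44.6 CPM in p53-null cells. The Y220C libraries went from 61.6, 66.0, 66.6 and 66.4 CPM to 36.6, 36.6, 37.5 and 36.4 CPM, with changes of -0.69 (SE 0.05, adjusted p = 2.94e-10) and -0.82 (SE 0.05, adjusted p = 1.50e-11). CDCA8 (borealin) and BIRC5 (survivin) changed by -0.73 and -0.66 in p53-null cells and by -0.98 and -0.82 in Y220C cells.

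Kinetochore and centromere genes held the 2 largest falls of Y220C cells, SPC24 and SPC25. Of 8 genes, 7 fell in p53-null cells with a median of -0.63 and all 8 fell in Y220C cells with a median of -1.08, 6 of them at least 2-fold. The NDC80 complex, which grips microtubule ends, has 4 subunits on the list. SPC24 (ENSG00000161888, chr19:11131520-11155808) read 36.0, 32.7, 32.6 and 35.6 CPM in p53-null DMSO and 18.9, 18.3, 15.2 and 19.6 CPM in p53-null MS78 libraries. Y220C cells gave 30.6, 32.7, 30.1 and 29.8 CPM under DMSO and 8.20, 7.79, 8.08 and 7.10 CPM under MS78. The DMSO ranges of the lines overlapped and the treated Y220C libraries were all far below the treated p53-null libraries, with changes of -0.93 (SE 0.07, adjusted p = 5.61e-10) and -1.98 (SE 0.08, adjusted p = 1.39e-14), the latter the largest fall of any of the 55 genes. Its partner SPC25 changed by -0.92 (SE 0.05, adjusted p = 3.28e-11) and -1.66 (SE 0.06, adjusted p = 6.79e-15). NUF2 changed by -0.57 and -1.04, and NDC80 itself by -0.94 and -1.04.

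Among centromere genes, the fibrous corona proteins CENPF and CENPE fell more in Y220C cells. CENPE averaged 6.39 TPM in p53-null DMSO, 5.05 in p53-null MS78, 10.5 in Y220C DMSO and 4.61 in Y220C MS78 libraries. Its means in the 2 lines were thus close under MS78 and apart under DMSO. CENPF averaged 27.0, 21.5, 31.9 and 12.8 TPM in the same order of groups. CENPF changed by -0.45 (SE 0.08, adjusted p = 1.55e-04) in p53-null and -1.32 (SE 0.08, adjusted p = 2.44e-11) in Y220C cells, and CENPE by -0.37 (SE 0.08, adjusted p = 0.00235) and -1.12 (SE 0.08, adjusted p = 7.55e-10). In p53-null cells the call for CENPE was lost within either set of libraries (log2 fold change -0.27 and -0.35, adjusted p = 0.0581 and 0.223). That for CENPF was lost in the set without leukocyte reads (-0.46, adjusted p = 0.0892) and with length-scaled TPM counts (-0.30, adjusted p = 0.0999). CENPA (chr2:26764289-26801067), the histone H3 variant that marks the centromere, had the smallest fall of this role in Y220C cells. It read 43.8, 41.5, 37.5 and 41.7 CPM in p53-null DMSO and 26.4, 25.3, 24.1 and 26.2 CPM in p53-null MS78 libraries, and 38.7, 37.9, 42.3 and 41.0 CPM and 24.2, 25.6, 25.8 and 21.9 CPM in Y220C cells. The ranges of the 2 lines overlapped under either treatment, and the changes were -0.69 (SE 0.06, adjusted p = 7.02e-09) and -0.71 (SE 0.06, adjusted p = 3.31e-09).

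**Figure D2:**
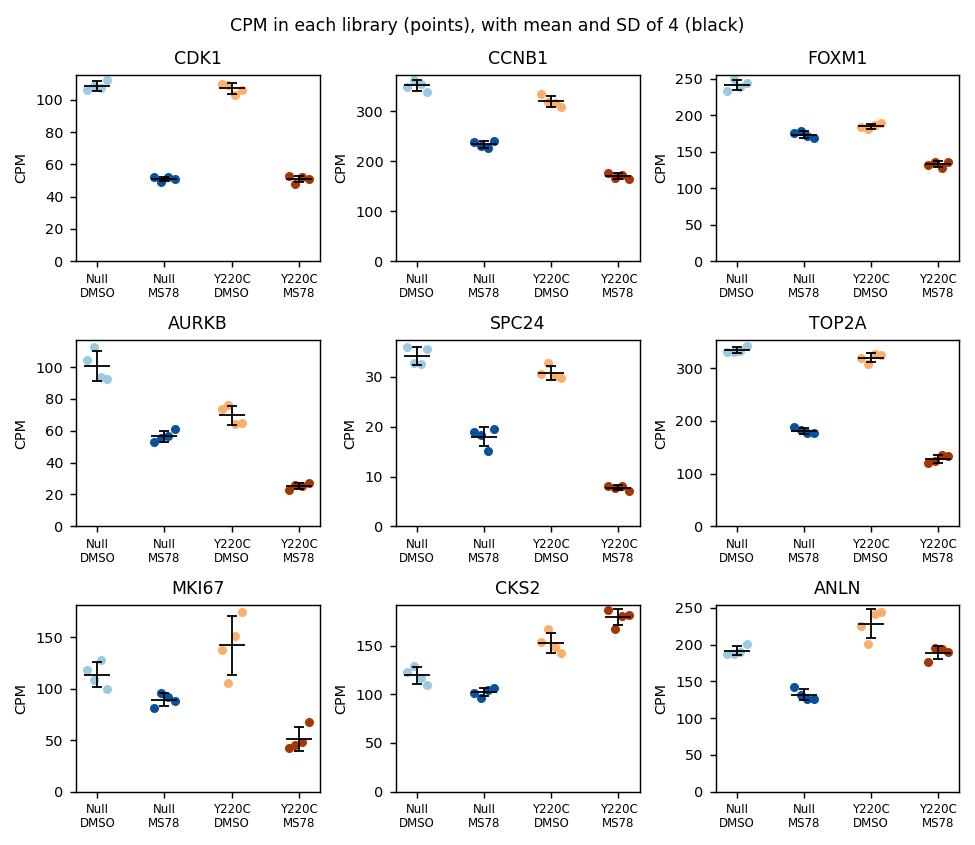
CPM (y axis, from 0) of 9 genes in each of the 16 libraries (points), by group (x axis), with the mean and SD of 4 libraries in black. CDK1 and FOXM1 fell in both lines, SPC24, AURKB, TOP2A and MKI67 reached their lowest values in Y220C MS78 libraries, and CKS2 rose there.

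The 5 genes of anaphase fell in both lines, with medians of -0.80 and -0.90. UBE2C (chr20:45812576-45816957), the ubiquitin-conjugating enzyme of the anaphase-promoting complex, read 112, 107, 104 and 106 CPM in p53-null DMSO and 58.1, 61.4, 58.4 and 59.3 CPM in p53-null MS78 libraries. The Y220C values were 85.3, 86.0, 93.3 and 87.3 CPM and 41.3, 41.9, 38.8 and 37.0 CPM, a change of -1.15 (SE 0.04, adjusted p = 1.93e-14) against -0.85 (SE 0.04, adjusted p = 2.99e-12). CDC20, the activator of the complex, changed by -0.56 and -0.98. PTTG1 (chr5:160421822-160428744), securin, was less changed. Its values were 135, 136, 133 and 139.8 CPM and 106, 105, 111 and 112 CPM in p53-null cells and 118, 118, 112 and 117 CPM and 95.5, 83.2, 82.7 and 80.7 CPM in Y220C cells. Even so its MS78 and DMSO libraries did not overlap in either line, with changes of -0.33 (SE 0.04, adjusted p = 6.91e-06) and -0.44 (SE 0.05, adjusted p = 7.53e-08). ESPL1 (separase) and CDCA5 (sororin, which protects cohesin) changed by -0.90 and -0.83 in Y220C cells.

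All 7 mitotic kinesins, the motors of the spindle, fell in both lines, with medians of -0.64 and -0.86. KIF2C (chr1:44739818-44767767), which takes microtubule ends apart at the centromere, went from 158, 163, 155 and 154 CPM to 88.3, 84.4, 84.8 and 90.6 CPM in p53-null cells. Y220C libraries went from 148, 142, 140.3 and 138 CPM to 77.7, 75.2, 70.1 and 70.5 CPM, with changes of -0.86 (SE 0.04, adjusted p = 9.45e-13) and -0.96 (SE 0.04, adjusted p = 7.75e-14). KIF18A (chr11:28020620-28108308), which damps chromosome movement on the metaphase plate, fell least. It read 57.1, 54.5, 54.9 and 57.1 CPM and 46.2, 43.1, 43.4 and 41.9 CPM in p53-null cells and 64.6, 58.0, 60.6 and 68.1 CPM and 50.4, 44.5, 50.6 and 48.8 CPM in Y220C cells. Its changes were -0.36 (SE 0.05, adjusted p = 1.81e-05) and -0.37 (SE 0.05, adjusted p = 4.97e-06). The remaining 5, KIF11, KIF14, KIF20A, KIF23 and KIF4A, changed by between -0.70 and -0.95 in Y220C cells.

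The 4 genes of spindle assembly and poles had medians of -0.68 and -0.85, and all fell in both lines. HMMR (chr5:163460203-163491945), a spindle and hyaluronan-binding protein, read 109, 107, 116 and 117 CPM in p53-null DMSO and 65.8, 61.2, 61.8 and 69.2 CPM in p53-null MS78 libraries. In the Y220C line it read 146, 131, 149 and 162 CPM and 78.7, 73.7, 80.8 and 68.9 CPM. It was the role's largest change in Y220C cells, -0.96 (SE 0.06, adjusted p = 4.28e-11), against -0.80 (SE 0.06, adjusted p = 1.77e-09). DLGAP5 (chr14:55148112-55191678), a spindle microtubule stabiliser, went from 101, 107, 108 and 107 CPM to 76.1, 68.8, 71.3 and 70.7 CPM and, in Y220C cells, from 93.5, 88.9, 97.8 and 95.8 CPM to 55.4, 53.8, 59.0 and 52.1 CPM. All treated Y220C libraries were below all treated p53-null libraries, and the changes were -0.56 (SE 0.04, adjusted p = 3.08e-09) and -0.77 (SE 0.05, adjusted p = 1.64e-11).

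In the group of condensin subunits, topoisomerase and the chromosome surface, all 7 genes fell in both lines, with medians of -0.62 and -0.83. TOP2A (ENSG00000131747, chr17:40388516-40417950), the topoisomerase that untangles sister chromatids, read 331, 329.9, 333 and 343 CPM in p53-null DMSO and 188, 184, 177 and 177 CPM in p53-null MS78 libraries. Y220C cells gave 320.2, 309, 327 and 325 CPM under DMSO and 119.7, 125, 135 and 133 CPM under MS78. The treated libraries of the 2 lines were well apart, with changes of -0.88 (SE 0.04, adjusted p = 2.88e-13) and -1.32 (SE 0.04, adjusted p = 1.67e-16). NCAPD2 (chr12:6493356-6531955), a condensin I subunit, had the smallest fall of this role in Y220C cells. It went from 649.9, 666, 639 and 651 CPM to 495, 504, 470.4 and 503 CPM in p53-null cells and from 543, 539, 541 and 548 CPM to 360.5, 366, 371 and 381 CPM in Y220C cells. The changes were -0.40 (SE 0.03, adjusted p = 1.41e-09) and -0.55 (SE 0.03, adjusted p = 4.33e-12).

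MKI67 (ENSG00000148773, chr10:128096659-128126385) encodes the proliferation marker Ki-67, which coats mitotic chromosomes. It read 118, 109, 128 and 100.2 CPM in p53-null DMSO and 81.3, 95.9, 92.2 and 87.9 CPM in p53-null MS78 libraries. In Y220C cells it read 137, 106, 152 and 175 CPM under DMSO and 42.0, 45.0, 48.5 and 68.0 CPM under MS78. The p53-null groups nearly met, and their change of -0.35 (SE 0.13) had an adjusted p of 0.04999 close to the threshold. Within the libraries with and without leukocyte reads the change was as large or larger, -0.37 and -0.47, but was not called (adjusted p = 0.083 and 0.271). The call was also lost on leaving out any p53-null library but DMSO replicate 4, and on leaving out Y220C DMSO replicate 1 or 3 or Y220C MS78 replicate 2 or 3 (adjusted p = 0.0547 to 0.145). The Y220C groups were far apart, with a change of -1.49 (SE 0.14, adjusted p = 1.49e-08), although the 4 Y220C DMSO libraries spread more for this gene than for most.

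In the Y220C DMSO libraries the spread went with transcript length. Replicates 4 and 2, which hold the highest and lowest MKI67 and differ most of all pairs of replicates, were chosen after their values were seen. Between them the CPM ratio was 1.35 to 1.67 for the 4 genes whose main transcript has at least 8000 bases (MKI67, CENPF, CENPE and ASPM). For the 6 under 1000 bases it was 0.856 to 1.015, with a median of 0.953. The 45 genes between had ratios of 0.832 to 1.245, with a median of 1.053. The main transcript is the one with the highest mean TPM. For AURKA and INCENP, among the 6, it took 17.0% and 41.5% of the gene's TPM in Y220C DMSO libraries. Their longer forms AURKA-202 (2248 bases) and INCENP-202 (3964 bases) took 14.3% and 28.2%, so their length is less certain. Across the 55 genes the log2 ratio and log2 length had a Pearson r of 0.71 and a Spearman rho of 0.692, against 0.196 and 0.28 across all genes tested. For the other 5 pairs of Y220C DMSO libraries, each taken as the library with more MKI67 over the one with less, r was 0.419 to 0.662. In the other groups it took both signs, -0.546 to 0.59 in p53-null DMSO, -0.416 to 0.475 in p53-null MS78 and -0.0738 to 0.52 in Y220C MS78 libraries. MKI67, which set the order of each pair, has the longest main transcript (12678 bases) and is itself among the 55 points. That order therefore favours a positive r, and the pairs of a group share its 4 libraries. These r values are descriptions over genes of the same libraries. The mitochondrially encoded genes summed to 74000 TPM in replicate 2, 75525 in replicate 1, 78159 in replicate 3 and 85981 in replicate 4, and their MKI67 values ranked in the same order. The part of length or RNA quality in these values was not tested.

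**Figure D3:**
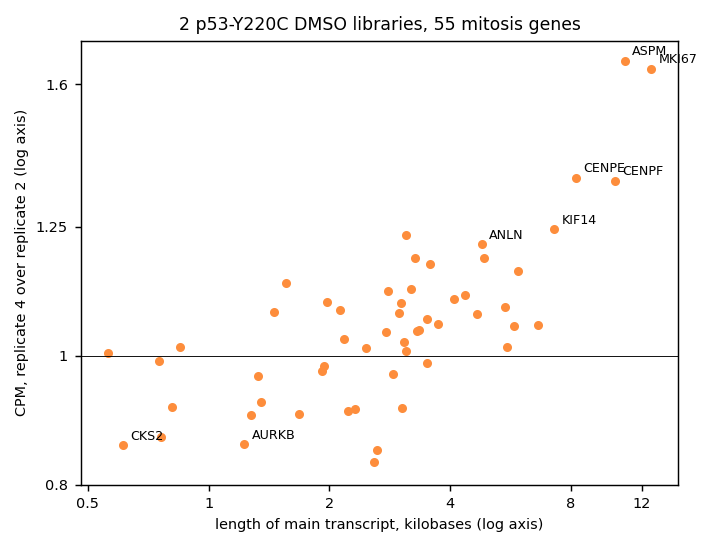
CPM in Y220C DMSO replicate 4 over replicate 2 (y axis, log scale) against length of the main transcript in kilobases (x axis, log scale), 1 point per gene. The 4 longest transcripts stand at 1.35 or above. The 6 under 1000 bases, CKS2 among them, stand at 0.856 to 1.015, and the 45 between at 0.832 to 1.245.

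The 4 cytokinesis genes fell in both lines with medians of -0.56 and -0.54. PRC1 (chr15:90966038-90995629), which bundles midzone microtubules, went from 152, 160.4, 146 and 148 CPM to 102, 99.0, 102 and 104 CPM in p53-null cells. In Y220C cells it went from 127, 130.4, 115 and 119 CPM to 85.7, 77.3, 82.2 and 85.0 CPM, with changes of -0.58 (SE 0.04, adjusted p = 2.23e-09) and -0.57 (SE 0.05, adjusted p = 1.71e-09). ANLN (chr7:36389806-36453791), the anillin scaffold of the contractile ring, read 188, 188, 190.5 and 201 CPM in p53-null DMSO and 142, 132, 126 and 127 CPM in p53-null MS78 libraries. In Y220C cells it read 226, 201, 242 and 244 CPM under DMSO and 176, 196, 194 and 191 CPM under MS78. All treated Y220C libraries lay above all treated p53-null libraries, and the change was smaller in Y220C cells, -0.27 (SE 0.05, adjusted p = 3.20e-04) against -0.54 (SE 0.05, adjusted p = 1.46e-07). ECT2 and RACGAP1, which switch on RhoA at the cleavage site, changed by -0.51 and -0.57 in Y220C cells and -0.51 and -0.65 in p53-null cells.

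The design also asks whether MS78 acted differently in the 2 lines, which was tested as the difference between the 2 log2 fold changes, Y220C minus p53-null. For 25 of the 55 genes the change was more negative in Y220C cells and for 2, CKS2 and ANLN, more positive, where 12.4% and 14.4% of all genes passed in those directions. The median difference was -0.16 against -0.02 over all genes. The largest differences were those of MKI67, -1.14 (SE 0.19, adjusted p = 1.32e-04), SPC24, -1.05 (SE 0.10, adjusted p = 1.98e-07), CENPF, -0.87 (SE 0.11, adjusted p = 6.87e-06), CENPE, -0.75 (SE 0.12, adjusted p = 8.96e-05), SPC25, -0.74 (SE 0.08, adjusted p = 1.13e-06), and AURKB, -0.62 (SE 0.10, adjusted p = 1.28e-04). By role the count of genes with a more negative change was 6 of 8 at the kinetochore, 5 of 9 in mitotic entry, 4 of 7 in the condensin group, 3 of 7 kinesins, 2 of 5 in anaphase, 2 of 4 passenger subunits, both mitotic kinases and 1 of 4 in spindle assembly. No gene of the checkpoint or of cytokinesis and not FOXM1 was among them. For CENPE the means of the lines were apart under DMSO and close under MS78, as given above. The Y220C DMSO values of MKI67, CENPF and CENPE enter these differences, so the values of length given above apply here too. Across the 55 genes the difference and log2 length had a Pearson r of -0.259 and a Spearman rho of -0.039. The part of length in these differences was not tested. Of the 25, AURKA lost its call on leaving out any of 13 of the 16 libraries (adjusted p = 0.0585 to 0.111), all but p53-null DMSO replicate 2, Y220C DMSO replicate 4 and Y220C MS78 replicate 3. KIF20A lost it without any of 11 libraries (adjusted p = 0.0535 to 0.093), all but p53-null DMSO replicate 4, p53-null MS78 replicate 4, Y220C DMSO replicates 1 and 2 and Y220C MS78 replicate 1. CCNA2 lost it without p53-null DMSO replicate 3 (adjusted p = 0.0566) or p53-null MS78 replicate 1 (adjusted p = 0.0577). With length-scaled TPM counts 21 differences were called, 20 negative and 1 positive. The 6 lost were those of ANLN (0.26, adjusted p = 0.0761), CDC25C (-0.28, adjusted p = 0.0653), KIF20A (-0.19, adjusted p = 0.23), SMC4 (-0.08, adjusted p = 0.686), NCAPD2 (-0.08, adjusted p = 0.332) and AURKA (-0.07, adjusted p = 0.602). With the replicate number as a block AURKA was also not called (adjusted p = 0.0607).

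Other markers moved with the line and treatment too. VIM, KRT8 and KRT18 of the carcinoma line fell in Y220C cells, with changes of -0.41, -0.44 and -0.38, and had log2 fold changes of -0.02, -0.06 and -0.08 in p53-null cells, where none of the 3 was called. The 8 carcinoma markers summed to 4632 to 5033 TPM in p53-null DMSO, 4619 to 4705 in p53-null MS78, 4637 to 4987 in Y220C DMSO and 3408 to 3644 in Y220C MS78 libraries. Of the 13 mitochondrially encoded genes 3 fell and none rose in p53-null cells and 1 fell and 6 rose in Y220C cells, and their sums were 69935 to 79558 TPM, 63434 to 72117 TPM, 74000 to 85981 TPM and 76207 to 82908 TPM in the same order of groups. Among all genes 13.3% were called lower in p53-null cells, and 23.6% lower and 24.9% higher in Y220C cells. The part of the carcinoma markers or the mitochondrial genes in the differences was not tested.

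Fewer of these differences were called in the smaller sets of libraries, where 2 of the 4 groups (with leukocyte reads, both DMSO groups; without, both MS78 groups) hold 1 library each. Within the libraries with leukocyte reads 14 genes had a more negative and 2 a more positive change in Y220C cells (4.16% of all genes were called lower there). Within those without such reads 6 had a more negative change and none a more positive one (0.678% of all genes were called lower). The 6 were CDC25B, NUF2, SPC24, SPC25, CENPF and TOP2A, named after their values were seen. The difference of MKI67 was -0.98 (adjusted p = 0.00483) and -1.30 (adjusted p = 0.0535) in the 2 sets, and that of ANLN was 0.35 (adjusted p = 0.00686) and 0.07 (adjusted p = 0.876). Across the 55 genes the 2 lines' log2 fold changes, which share no library, had a Pearson r of 0.527 and a Spearman rho of 0.537.

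**Figure D4:**
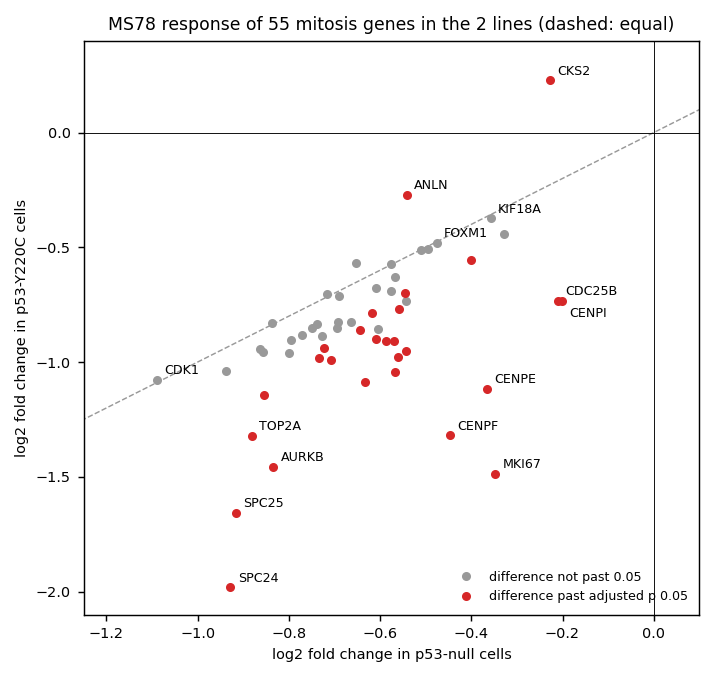
Log2 fold change after MS78 in p53-null cells (x axis) and Y220C cells (y axis), 1 point per gene, with red for an adjusted p under 0.05 for the difference and a dashed line where both are equal. The 25 red points under the line include SPC24 and MKI67, and CKS2 and ANLN are the 2 above it.

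Under DMSO the genes went both ways between the lines. In Y220C DMSO against p53-null DMSO libraries 20 of the 55 genes were lower and 11 higher, where 25.5% and 24.7% of all genes were called in those directions. The median difference was -0.06. The lowest was AURKB, -0.53 (SE 0.07, adjusted p = 1.57e-06), followed by FOXM1, -0.38 (SE 0.03, adjusted p = 8.80e-09). The highest was CENPE, 0.72 (SE 0.08, adjusted p = 2.74e-07), followed by HMMR, 0.39 (SE 0.06, adjusted p = 1.30e-05), and CKS2, 0.36 (SE 0.05, adjusted p = 1.53e-05). For CENPE, CENPF, ASPM and MKI67, 4 of the 11 higher genes, the values of length given above apply. Across the 55 genes the DMSO difference and log2 length had a Pearson r of 0.396, against 0.0274 across all genes tested. With length-scaled TPM counts 22 of the 31 differences under DMSO were called, 13 lower and 9 higher. The 9 lost were the higher genes CENPF and MKI67 and the lower genes CDCA3, INCENP, NUF2, SPC24, ESPL1, KIF20A and NCAPG (adjusted p = 0.0592 to 0.519). Of the 25 genes with a more negative response in Y220C cells, 11 were lower and 5 higher in that line under DMSO.

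**Figure D5:**
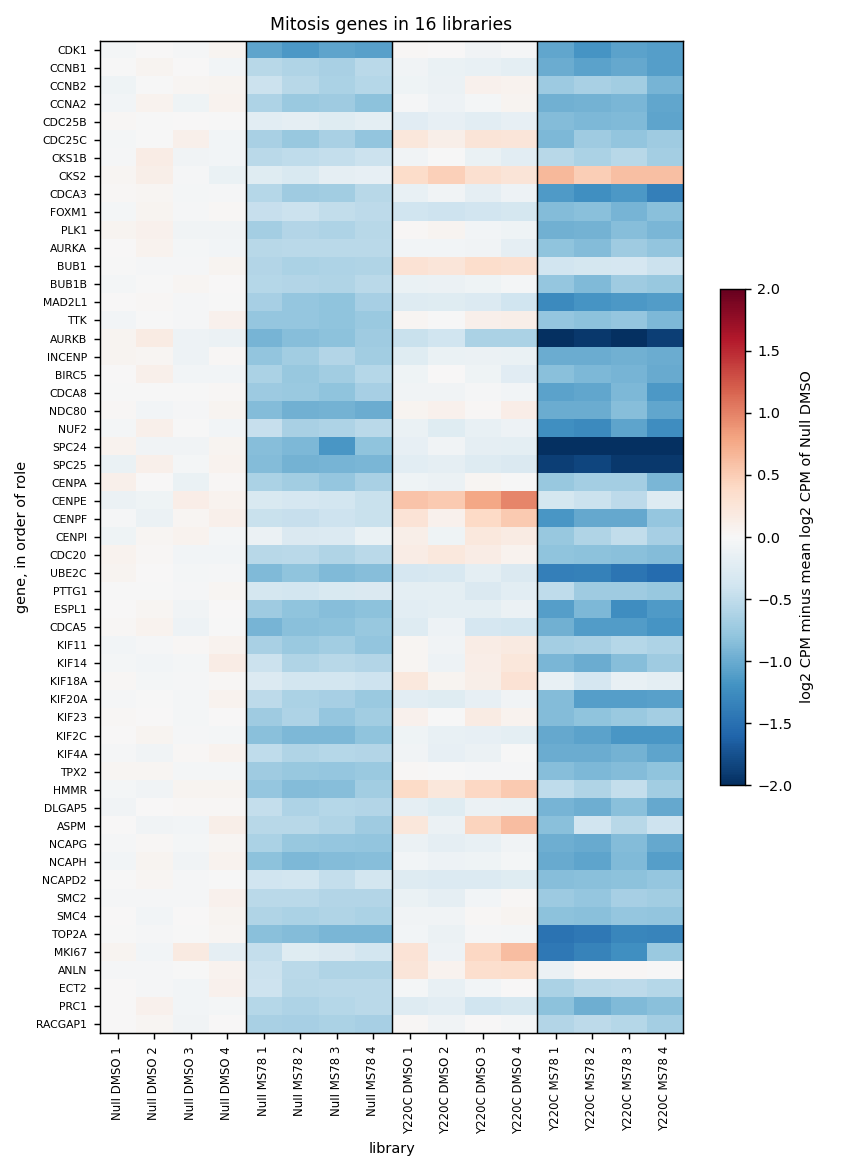
Log2 CPM of the 55 genes (rows, in order of role) in the 16 libraries (columns), each minus the gene's mean over the 4 p53-null DMSO libraries; blue is lower and red higher. Both MS78 groups are blue for nearly all genes, with the deepest blue for AURKB, SPC24 and SPC25 in Y220C MS78 libraries and red for CKS2.

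Other genes of the pathway were counted in the same fit. Of 68 further mitosis genes 63 fell and none rose in p53-null cells, with a median of -0.55, and 62 fell and 1 rose in Y220C cells, with a median of -0.71. Among all genes tested 13.3% were called lower in p53-null cells, and 23.6% lower and 24.9% higher in Y220C cells. The gene that rose was MIS12, which encodes a kinetochore protein, 0.22 (SE 0.07, adjusted p = 0.0175). The kinase gene PKMYT1, an inhibitor of CDK1, changed by -0.89 (SE 0.06, adjusted p = 3.70e-10) and -1.58 (SE 0.07, adjusted p = 8.42e-14), and the outer kinetochore gene SKA1 by -1.04 (SE 0.06, adjusted p = 2.12e-11) and -1.34 (SE 0.06, adjusted p = 2.06e-13). Of these 68 genes 26 had a more negative response in Y220C cells and 4 (MIS12, CENPL, NCAPD3 and MASTL) a more positive one. Among all genes 12.4% and 14.4% passed in those directions.

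Subunits of the anaphase-promoting complex had medians nearer 0. Their counts and those of cohesin are to be read beside the 13.3% and 23.6% of all genes called lower in p53-null and Y220C cells. In Y220C cells 24.9% of all genes were called higher. Of 15, 3 fell in p53-null cells (ANAPC1 -0.20, ANAPC7 -0.18 and CDC23 -0.17) and none rose, and in Y220C cells 9 fell and 1 (CDC26, 0.28) rose, with medians of -0.08 and -0.14. The largest fall was that of ANAPC2 in Y220C cells, -0.55 (SE 0.07, adjusted p = 7.78e-07). Of 10 cohesin genes, whose ring holds sister chromatids together, 4 fell in p53-null cells (SMC1A -0.27, SMC3 -0.15, RAD21 -0.35 and STAG1 -0.21). In Y220C cells 3 fell (SMC1A -0.45, SMC3 -0.20 and RAD21 -0.49) and the cohesin loader gene MAU2 rose by 0.18. Against these the condensin group, with TOP2A and MKI67 in it, changed by -0.88 to -0.35 in p53-null cells. In Y220C cells its 7 genes changed by -1.49 to -0.55. Its smallest falls were thus close to the largest of cohesin in both lines.

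Of 16 genes for subunits and regulators of MuvB, DREAM and NF-Y, 8 fell and none rose in p53-null cells, and 10 fell and 1, the DREAM kinase gene DYRK1A, rose in Y220C cells (0.41). The shares of all genes were 13.3% lower in p53-null cells and 23.6% lower and 24.9% higher in Y220C cells. MYBL2, which encodes B-MYB, went from a mean of 170 to 106 CPM in p53-null cells and from 117 to 50.4 CPM in Y220C cells, changes of -0.68 (SE 0.05, adjusted p = 1.89e-09) and -1.21 (SE 0.06, adjusted p = 2.50e-13). The pocket protein gene RBL1 changed by -0.73 (SE 0.06, adjusted p = 1.63e-08) and -0.78 (SE 0.07, adjusted p = 1.40e-08), and TFDP1 by -0.19 (SE 0.05, adjusted p = 0.0031) and -0.51 (SE 0.05, adjusted p = 4.06e-08).

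DNA replication genes, which act in the preceding S phase, fell together with the mitotic genes. All 32 fell in both lines, where 13.3% and 23.6% of all genes were called lower, with medians of -0.75 and -0.92. In Y220C cells 13 of them fell at least 2-fold, where 2.07% of all genes did. The response was more negative in Y220C cells for 16 of the 32 and more positive for 1, where 12.4% and 14.4% of all genes passed. The median difference of responses was -0.21, against -0.16 for the 55 mitotic genes. Under DMSO 31 of the 32 were lower in Y220C than in p53-null cells, where 25.5% of all genes were. Their median was -0.41, whereas the 55 mitotic genes had a median of -0.06. The helicase gene MCM5 changed by -0.80 (SE 0.05, adjusted p = 5.34e-11) and -1.51 (SE 0.05, adjusted p = 3.54e-15), and the licensing gene CDC6 by -0.86 (SE 0.05, adjusted p = 1.13e-10) and -0.45 (SE 0.06, adjusted p = 1.85e-06), the only replication gene with a more positive response in Y220C cells.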

How the data were processed

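RNA was poly(A) selected before library preparation, per the labels' protocols, and the authors deposited 1 table per library with estimated counts and TPM for each transcript, per the file headers. FastQC 0.11.8 and hg38 are named in the submitters' processing notes; the sources used here give neither the quantifier's version nor its strand setting, so reads of antisense or overlapping genes and of close paralogues may be shared between them. Of 197653 transcripts listed, 97.8% matched GENCODE 29, and the unmatched held 0.278 to 0.325% of a library's reads. Deposited estimated counts were summed per gene and rounded to whole numbers, giving 20259977 to 27656528 reads per library, and deposited TPM were summed per gene for levels.

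Genes passing filterByExpr (15687 of 56865) were fitted with edgeR 4.0.16 in R 4.3.3, with TMM scaling, 1 fit of all 16 libraries in 4 groups (12 residual degrees of freedom), the quasi-likelihood F-test and Benjamini-Hochberg adjustment over all genes tested at 0.05. Comparisons were MS78 against DMSO in each line, the difference of these 2 changes, and Y220C against p53-null under DMSO. The fit was tested on simulated data. The 55 genes, their roles and the other gene lists were chosen with earlier results of these data known. All 55 may be named; values in every library are given for the genes with the largest and smallest change in Y220C cells of each role and for CDK1, CCNB1, FOXM1, TOP2A and MKI67. From other lists up to 4 called genes with the largest change, or all where 5 or fewer were called, may be named. Promoters are RefSeq sequences of GRCh38.p14, 1 per gene, and gene coordinates are those of GENCODE 29 on GRCh38. The replicate number was treated as a name. Alternatives were RLE scaling, other filters, length-scaled TPM counts, DESeq2 1.42.0, only the groups compared, a replicate block, a term for leukocyte reads, either set of libraries alone and each library left out. A further result is not reported here.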

Additional observations from a re-analysis of the deposited data

Results flagged for a closer look

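In the 24 genes with values in every library, 96 groups of 4 libraries were examined for a library far from the other 3, and 4 were found, where chance gives about 1 in 20 groups. AURKA stood at 171.4 CPM in Y220C DMSO replicate 4, below the other 3. INCENP stood at 61.62 CPM in Y220C DMSO replicate 1, also below the rest. PTTG1 stood at 95.54 CPM in Y220C MS78 replicate 1, above the rest, and DLGAP5 at 100.8 CPM in p53-null DMSO replicate 1, below the rest.

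The response to MS78 differed between the lines for 27 genes by edgeR's test of the difference (Y220C minus p53-null, log2 scale). At the kinetochore the differences were -1.053 for SPC24, -0.8724 for CENPF, -0.751 for CENPE, -0.7418 for SPC25, -0.533 for CENPI and -0.4767 for NUF2. In mitotic entry they were -0.5234 for CDC25B, -0.4572 for CDCA3, -0.3215 for CCNB1, -0.2837 for CDC25C, -0.2167 for CCNA2 and 0.4545 for CKS2. Among kinases and passenger subunits they were -0.2894 for PLK1, -0.1542 for AURKA, -0.622 for AURKB and -0.2496 for CDCA8. In anaphase they were -0.4183 for CDC20 and -0.2915 for UBE2C. Kinesins gave -0.4068 for KIF14, -0.3372 for KIF4A and -0.2184 for KIF20A, and the spindle gene DLGAP5 gave -0.2121. In the condensin group they were -1.138 for MKI67, -0.4397 for TOP2A, -0.1689 for SMC4 and -0.1535 for NCAPD2. The cytokinesis gene ANLN gave 0.2698.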

How the results depend on the processing

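No result changed direction under any alternative run. The count of called genes stayed within 1.5 times its main value everywhere except in the 2 sets of libraries. The difference between the lines' responses was called for 16 genes (14 lower, 2 higher) with leukocyte reads and 6 (6 lower, 0 higher) without, against 27, and the DMSO difference for 17 (11 lower, 6 higher) with them, against 31. In that last fit each DMSO group is 1 library, so the count rests on 1 library against 1 with the spread taken from the MS78 groups, and says nothing about the set of libraries. The median fall in p53-null cells was -0.653 with leukocyte reads, and the median difference of responses was -0.193 with length-scaled TPM counts and -0.209 without leukocyte reads. Leaving out each library in turn gave 53 to 55 called genes in p53-null cells, 55 in each fit of Y220C cells, 24 to 28 for the difference of responses and 27 to 34 under DMSO. The replicate block gave 54, 55, 26 and 31 called genes, with the AURKA difference of responses lost (adjusted p = 0.0607). Same-numbered libraries of the 2 lines had deviations that correlated at -0.0568 to 0.453 under DMSO (3 of 4 pairs over 0.1) and 0.15 to 0.531 under MS78 (4 of 4), and 5 of 8 and 6 of 8 libraries correlated best with their own number. Between treatments no same-numbered pair of a line was over 0.1 (-0.502 to -0.0419 in p53-null, -0.496 to -0.0674 in Y220C cells). Each such pair joins a library with leukocyte reads and a library without them, so these values cannot tell whether same-numbered libraries belong together. Within a treatment, replicate 1 is the only library of its group with its state of leukocyte reads. The highest values, 0.453 and 0.531, are those of the replicate 1 pairs, where number and leukocyte reads cannot be told apart. The replicate number was not used to pair libraries in the main fit. DESeq2 called 53, 55, 28 and 30. For single genes, the p53-null falls of MKI67 (adjusted p = 0.27 with length-scaled TPM counts) and CENPF (0.0999 there) lost their call, and 8 genes did so without leukocyte reads and 2, CENPE and MKI67, with them. Under DMSO the line difference lost its call on leaving out some single libraries for MKI67 (6 libraries, adjusted p up to 0.169), SPC24 (10, up to 0.141), ASPM (4, up to 0.107), CDCA3 (4, up to 0.107) and NUF2 (2, up to 0.0666), and the p53-null fall of CENPI gained one in 6 (adjusted p = 0.0319 to 0.0493). The fewest reads behind a value were 140, for SPC24, so counting error was largest there.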

Other observations

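The deposited tables split each gene's reads over its transcripts, and for 26 of the 55 genes 1 transcript took at least 75% of the gene's TPM on average in every group. For 4 genes the share of the main transcript differed by at least 10 percentage points between groups without overlap of the libraries, and these were named after their values were seen. Each of the 55 genes was looked at in several comparisons. The share of all genes with such a difference was not computed, so whether 4 is many cannot be told. BUB1B-201, the main coding transcript of the checkpoint gene BUB1B, took 77.0% ± 5.64 (SD, n = 4) in Y220C DMSO and 95.9% ± 6.52 in Y220C MS78 libraries, while the short processed transcript BUB1B-207 took 16.7% and 3.19%. SMC2-203 took 69.4% ± 7.58 of the condensin gene SMC2 in Y220C DMSO and 54.4% ± 4.61 in Y220C MS78 libraries. CDC25C-201 took 50.6% ± 4.79 and 39.3% ± 5.66 in the same groups. MAD2L1-202, annotated as subject to nonsense-mediated decay, took 58.5% ± 3.41 in p53-null DMSO and 73.8% ± 2.30 in p53-null MS78 libraries. These shares rest on how the quantifier divided reads that fit several transcripts, and no test was made.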
